A study of Mus musculus with 64 samples.

Results

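The genes described here are 10 mouse members of the PARP family, whose enzymes use NAD+ as their substrate: Parp1, Parp2, Parp3, Parp4, Parp8, Parp9, Parp10, Parp11, Parp12 and Parp14. They were chosen by gene symbol, and each symbol matched 1 Ensembl identifier among the 52636 of the count table. All 10 members passed the filter on low counts, which kept 20249 genes. The samples came from male mice aged 2 to 4 months, whose brown adipose depot (BAT) and epididymal white depot (eWAT) were both sequenced. FANKO mice carried Nampt with exon 3 flanked by loxP sites and a Cre driven by the Adiponectin promoter, which is active in adipocytes, so the other cells of a depot kept Nampt. WT mice were littermates without the Cre. Tissues were taken at ZT 6, ZT 10, ZT 18 and ZT 22, where ZT 0 is the start of the light phase, with 4 samples in each of the 16 groups and 64 in all.

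PARP enzymes split NAD+ and attach its ADP-ribose part to proteins, either as single units or as chains, and release nicotinamide. NAMPT, the enzyme deleted in FANKO adipocytes, turns nicotinamide back into a precursor of NAD+, so both proteins act on the same pool. Parp1, Parp2 and Parp3 encode enzymes that bind broken DNA and modify proteins there, and PARP1 makes most of the ADP-ribose chains of a damaged cell. Parp9, Parp10, Parp11, Parp12 and Parp14 are induced by interferon in many cell types, and several of their products act against viruses or in macrophage signalling. Parp4 encodes the PARP of vault particles, and Parp8 a member that attaches single ADP-ribose units. By GENCODE M21 on GRCm38, the DNA-repair members lie at chr1:180568924-180601254 (Parp1), chr14:50807841-50821301 (Parp2) and chr9:106470322-106476949 (Parp3). Parp9 (chr16:35938470-35972605) and Parp14 (chr16:35832874-35871544) are near neighbours on opposite strands. Parp11 (chr6:127446840-127494261) and Parp12 (chr6:39086410-39118349) share a chromosome, and Parp10 lies at chr15:76231174-76243441, Parp4 at chr14:56575619-56659794 and Parp8 at chr13:116854820-117025537. Counts of Parp10 are uncertain where it shares 205 exonic bases with Plec on the same strand, and those of Parp4 and Parp3 where they share 335 bases with Gm16573 and 20 with Rrp9 on the opposite strand.

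Promoter sequence was looked up because the members fall into a DNA-repair and an interferon class, and because tissues were sampled around the day. RefSeq promoters of GRCm38.p6, running from 250 bases before to 50 after a gene's start, were matched by symbol for 7 of the 10 members, with 8 promoters in all because Parp11 had 2. Parp9, Parp10 and Parp14 had no entry. Both strands were searched for GAAA followed by any 2 bases and GAAA (the core of the interferon-stimulated response element), TTCNNNGAA (the STAT site) and CACGTG (the E-box bound by CLOCK and BMAL1). Among 32851 promoters of this length, 3.44% held the first, 8.30% the second and 7.15% the third. A stretch is shown for each of 4 members with a match, read 5′ to 3′ on the plus strand, with the matched bases in capitals.
Parp1: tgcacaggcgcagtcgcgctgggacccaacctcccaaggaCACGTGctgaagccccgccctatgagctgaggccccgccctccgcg
Parp2: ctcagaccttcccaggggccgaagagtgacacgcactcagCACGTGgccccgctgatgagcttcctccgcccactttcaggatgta
Parp11: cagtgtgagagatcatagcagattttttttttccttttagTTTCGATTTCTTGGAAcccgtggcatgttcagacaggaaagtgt
Parp4: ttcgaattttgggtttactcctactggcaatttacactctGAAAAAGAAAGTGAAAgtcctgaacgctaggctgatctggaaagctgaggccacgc

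The Parp1 stretch lies at chr1:180568802-180568887 and the Parp2 stretch at chr14:50807697-50807782, and both hold an E-box. The Parp11 stretch at chr6:127446756-127446839 holds the interferon-response core on the minus strand, overlapping a STAT site. The Parp4 stretch at chr14:56575429-56575524 holds 2 overlapping interferon-response cores. The second Parp11 promoter also held an E-box. No match to the 3 motifs was found in the windows of Parp3, Parp12 and Parp8. These matches describe the letters of the windows, and binding was not measured.

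Total counts ranged from 6117343 to 30544847 per sample, with a median of 15826651. Per library, the members drew between 16 and 786 counts for Parp8 and between 209 and 10352 for Parp14. Brown adipocyte markers summed to 4227 to 9889 CPM (counts scaled to library size) in WT BAT and to 9.15 to 27.8 in WT eWAT, as the depot labels say. Mitochondrially encoded genes took a median of 24.6% (WT) and 14.7% (FANKO) of counts in BAT, and 6.55% and 10.7% in eWAT. Skeletal muscle markers exceeded 100 CPM in 8 libraries, 7 of them from BAT, and were found in both genotypes there (0.211 to 425 CPM in WT and 3.15 to 389 in FANKO). The WT library at ZT 18, replicate 4, had the highest of these sums in BAT, and its Parp1 (83.9 CPM), Parp3 (36.0) and Parp10 (33.5) were the lowest of the WT BAT samples. Levels are given as CPM after scaling by trimmed mean of M values (TMM), and a change is called at an adjusted p below 0.01 by edgeR's quasi-likelihood test over all genes tested. Where library size alone was used as the scale, the median genotype difference of all genes moved from 0.00 to 0.58 (log2) in BAT and from -0.02 to -0.27 in eWAT, so changes are relative to that median.

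Nampt, the targeted gene, was checked first. In BAT the 16 WT samples ran from 479 through a median of 702 to 1454 CPM, and the 16 FANKO samples from 109 through 143 to 186 CPM. The groups did not overlap, and the log2 difference was -2.31 ± 0.07 (SE, adjusted p = 1.09e-36). In eWAT the WT samples ran from 112 through 149 to 309.7 CPM and the FANKO samples from 101 through 114 to 131 CPM, a log2 difference of -0.50 ± 0.07 (adjusted p = 4.67e-09). There, 4 of 16 FANKO samples lay below every WT sample. The fall in eWAT was called at ZT 18 (log2 difference -1.11) and ZT 22 (-0.59) and not at ZT 6 (adjusted p = 0.879) or ZT 10 (adjusted p = 0.144). Other cells of the depot keep the intact gene, and fewer cells of a type and less RNA per cell cannot be told apart in bulk tissue. Counts were made per gene, so transcripts without the exon between the loxP sites were not told apart from intact ones. The fall in Nampt counts was therefore not read as the extent of the deletion. The paper reported that NAD+ was much lower in both depots of FANKO mice and showed no oscillation there. In WT mice it reported a significant oscillation of NAD+ in BAT and a trend to one in eWAT.

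In BAT, FANKO samples had less Parp1 and more of Parp3, of all 5 interferon-inducible members, and of Parp4 and Parp8. Parp14 rose the most, with a mean 9.73 times that of WT, and Parp8 and Parp11 followed. Of the 10 members 9 were called, 8 higher and 1 lower, beside 67.0% of all genes tested (33.1% higher and 33.9% lower). A difference of more than 2-fold was called for 7 members, beside 28.4% of all genes. Parp2 was the member not called.

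**Figure D1:**
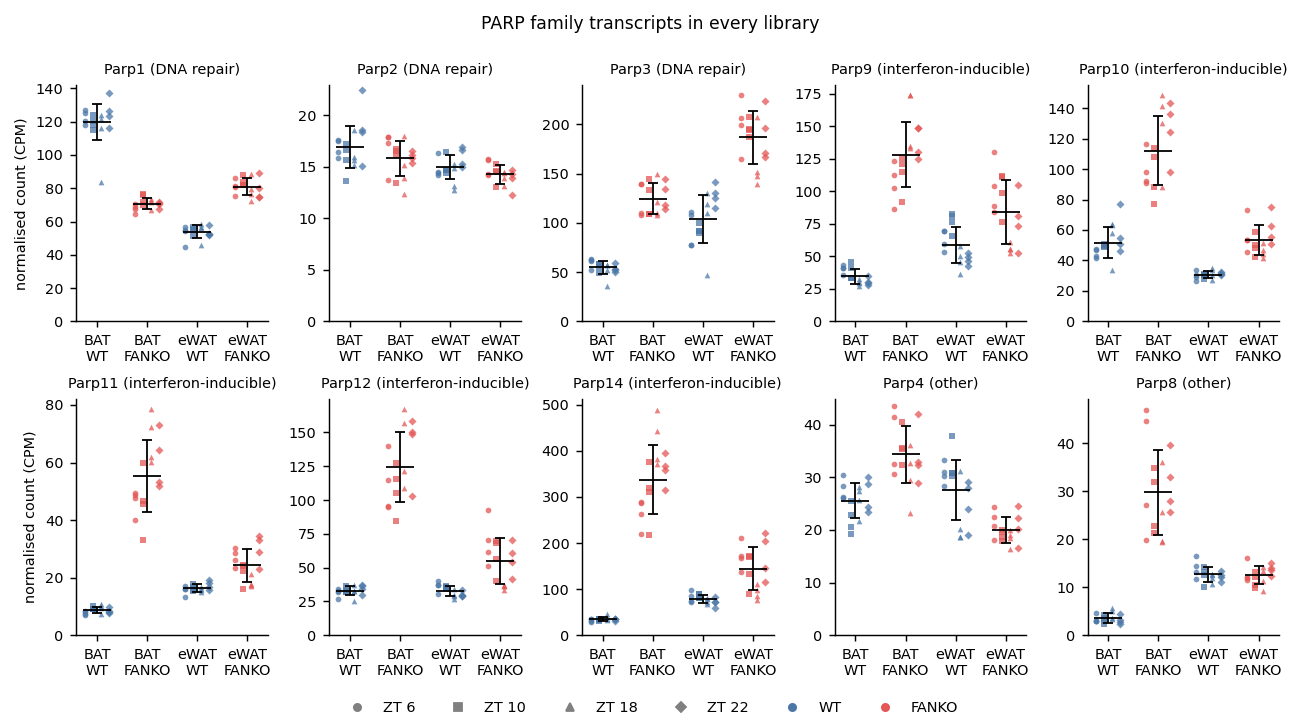
Level of each member in every library, in CPM, by depot and genotype. Points are samples (symbols by time point), and lines with bars are the mean and SD of the 16 samples of a depot and genotype. In BAT 8 members have no overlap between genotypes, and in eWAT 2 members, Parp1 and Parp10, have none.

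Of the DNA-repair members, Parp1 fell in BAT. Its WT samples ran from 83.9 through a median of 121 to 137 CPM and its FANKO samples from 64.2 through 71.0 to 76.5 CPM. Every FANKO sample lay below every WT sample, and the log2 difference was -0.76 ± 0.04 (SE, adjusted p = 1.67e-25). It was -0.17 (adjusted p = 0.00127) with library size alone as the scale. Parp3, which acts in the joining of double-strand breaks, moved the other way, from 36.0, 56.1 and 63.3 CPM (lowest, median, highest) in WT to 108, 119.9 and 149.5 CPM in FANKO. Here every FANKO sample lay above every WT sample (log2 difference 1.19 ± 0.08, adjusted p = 1.56e-19). Parp2, a close relative of Parp1 with the same chain-forming activity, had medians of 16.5 CPM in WT and 16.2 in FANKO, with overlapping ranges (log2 difference -0.09 ± 0.05, adjusted p = 0.0741). With library size alone as the scale, Parp2 was called higher (0.50, adjusted p = 4.16e-09).

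All 5 interferon-inducible members rose in BAT. Parp14, which encodes a large macrodomain protein of macrophage signalling, ran from 28.0 through 34.7 to 47.0 CPM in WT and from 218 through 338 to 489 CPM in FANKO (log2 difference 3.26 ± 0.09, adjusted p = 2.28e-38). Parp11, whose product localises to the nuclear envelope, ran from 7.15 through 8.79 to 11 CPM in WT and from 32.9 through 52.6 to 78.5 CPM in FANKO (log2 difference 2.63, adjusted p = 2.73e-38). In both, the lowest FANKO sample was above the highest WT sample by a wide gap. Parp12, an antiviral zinc-finger PARP, had medians of 32.9 and 118 CPM (log2 difference 1.91). Parp9, whose product lacks most catalytic activity and works with the ubiquitin ligase DTX3L, had medians of 33.5 and 125 CPM (log2 difference 1.87). Parp10, which restrains cell growth and viruses, had medians of 50.1 and 111 CPM (log2 difference 1.11). None of these 5 overlapped between genotypes, though Parp10 came close, with a highest WT sample of 77.0 CPM and a lowest FANKO sample of 77.2 CPM. Without overlap between genotypes in BAT were 8 members, beside 22.6% of all genes tested.

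Parp8 ran from 2.25 through 3.23 to 5.58 CPM in WT BAT and from 19.4 through 27.5 to 46.9 CPM in FANKO BAT. The groups did not overlap (log2 difference 3.05 ± 0.11, adjusted p = 1.39e-32). Parp4 changed less, with medians of 25.9 and 32.8 CPM, and 13 of 16 FANKO samples lay above every WT sample (log2 difference 0.43, adjusted p = 3.57e-07). The difference was 1.02 for Parp4 and 1.70 for Parp10 with library size alone as the scale.

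Markers of other cells moved with genotype in BAT as well. Of 8 macrophage markers 7 rose and 1 fell, and their summed level was 94.2 to 177 CPM in WT and 513 to 1222 in FANKO. All 8 lymphocyte markers rose, from 1.84 to 5.21 CPM in WT to 37.3 to 134 in FANKO. Adipocyte markers summed to 10887 to 17573 CPM in WT and 5624 to 9694 in FANKO, and brown adipocyte markers to 4227 to 9889 and 1253 to 3400. All 4 stromal markers rose, from 361 to 1102 CPM in WT to 1129 to 2074 in FANKO, and 3 of 4 endothelial markers fell, with sums of 381 to 548 and 266 to 407 CPM. A list of 24 genes of the type I interferon response summed to 194.5 to 325 CPM in WT and 3504 to 11245 in FANKO. The part of these shifts in the PARP values was not tested.

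**Figure D2:**
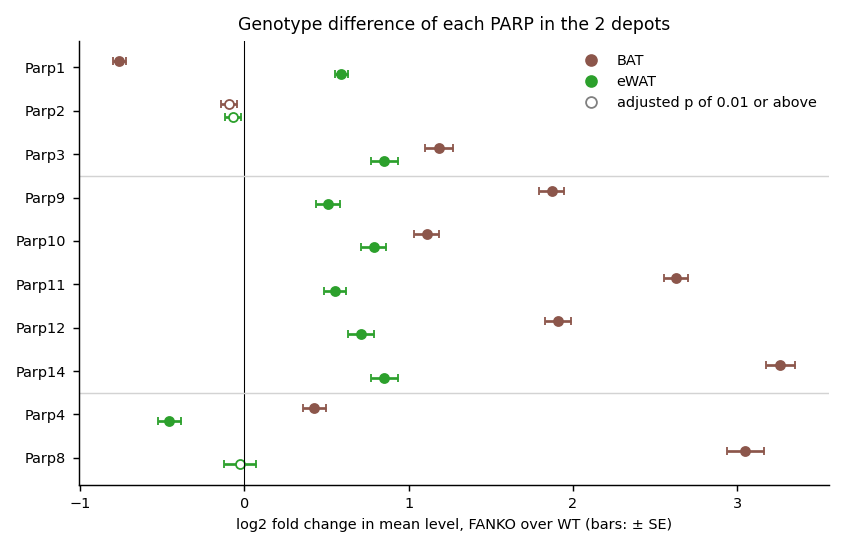
Difference between FANKO and WT for each member in BAT and eWAT (log2 fold change of FANKO over WT, with the SE from the quasi-likelihood test), over all time points, n = 16 samples per genotype and depot. Parp1 lies at -0.76 in BAT and at 0.59 in eWAT, and the largest values are those of Parp14 and Parp8 in BAT.

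In eWAT the changes were smaller, and Parp1 rose. Of the 10 members 8 were called, 7 higher and 1 lower, beside 50.3% of all genes tested (27.6% higher and 22.8% lower). No member called differed by more than 2-fold, beside 9.49% of all genes. Parp1 ran from 44.8 through 54.7 to 58.4 CPM in WT and from 72.6 through 81.1 to 88.9 CPM in FANKO, with no overlap (log2 difference 0.59, adjusted p = 1.72e-19). Parp10 was the other member without overlap, at 26.6, 30.7 and 35.2 CPM in WT and 41.8, 51.2 and 74.96 CPM in FANKO (log2 difference 0.79, adjusted p = 1.93e-13). Genes without overlap made up 5.90% of all genes tested in eWAT.

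Parp3 and Parp14 rose by similar amounts in eWAT, both with a log2 difference of 0.85. Parp3 had medians of 109 and 195 CPM, with 15 of 16 FANKO samples above every WT sample. Parp14 had medians of 79.0 and 142 CPM, with 13 of 16 above. The other interferon-inducible members rose by 0.51 (Parp9), 0.55 (Parp11) and 0.71 (Parp12) on the log2 scale. Parp4 fell by 0.46, with medians of 29.7 and 19.8 CPM (adjusted p = 1.61e-07). Parp2 (adjusted p = 0.222) and Parp8 (log2 difference -0.03, adjusted p = 0.83) were not called. With library size alone as the scale, Parp1 rose by 0.35, Parp9 by 0.27, Parp11 by 0.31 and Parp12 by 0.47, and Parp4 fell by 0.70. On that scale Parp2 was called lower (log2 difference -0.31, adjusted p = 0.000127). It was also called lower with a stricter filter on low counts (-0.16, adjusted p = 0.00201). The macrophage marker sum was 554 to 851 CPM in WT eWAT and 532 to 938 in FANKO, and 3 of its 8 genes rose and 1 fell. Lymphocyte markers summed to 6.07 to 39.0 CPM and 8.78 to 21.97 CPM, with 4 higher and 3 lower. Stromal markers fell, all 4 of them, from a sum of 2122 to 3723 CPM in WT eWAT to 1281 to 1869 in FANKO, without overlap. The brown adipocyte sum was 9.15 to 27.8 CPM in WT and 37.1 to 79.9 in FANKO, also without overlap, with 1 of its 5 genes higher and 1 lower. The interferon list ran from 299 to 434 CPM in WT and from 447 to 3479 in FANKO. The part of these shifts in the eWAT values was not tested.

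The difference of the genotype effect between depots was tested in the same model, as the effect in BAT minus that in eWAT. It was called for 9 of 10 members, 8 higher and 1 lower, beside 64.3% of all genes (32.2% higher and 32.1% lower). For Parp1 the difference was -1.35 on the log2 scale (adjusted p = 2.45e-29), its effects being opposite in sign. The difference was 3.08 for Parp8, 2.41 for Parp14, 2.08 for Parp11, 1.36 for Parp9, 1.20 for Parp12 and 0.88 for Parp4. It was smaller for Parp3 (0.34, adjusted p = 0.00856) and Parp10 (0.32, adjusted p = 0.00613), and these 2 calls were lost without the 8 libraries with muscle markers above 100 CPM (adjusted p = 0.0209 and 0.0325), where the values were 0.33 and 0.26 with fewer samples. The call for Parp3 was also lost without replicate 1 (0.0495) or 2 (0.0373), and that for Parp10 likewise (0.0361 and 0.0193). With library size alone as the scale the difference was -0.51 for Parp1, 1.16 for Parp3, 1.15 for Parp10, 1.73 for Parp4, 2.20 for Parp9 and 2.03 for Parp12. For Parp2 the difference was not called (-0.03, adjusted p = 0.740), but it was with library size alone (0.81, adjusted p = 9.03e-11).

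Averaged by class in each library, the mean log2 CPM of the 5 interferon-inducible members minus that of the 3 DNA-repair members went from -0.77 ± 0.12 (SD, n = 16) in WT BAT to 1.27 ± 0.30 in FANKO BAT. The WT samples ran from -0.99 to -0.61 and the FANKO samples from 0.61 to 1.75. In eWAT it went from -0.21 ± 0.19 to -0.02 ± 0.31, with ranges that overlap. There both class means rose, the interferon-inducible from 5.23 to 5.89 and the DNA-repair from 5.44 to 5.90. In BAT the interferon-inducible mean went from 4.82 to 6.96. The DNA-repair mean went from 5.58 to 5.69 there, averaging a lower Parp1 and a higher Parp3. The values are not per transcript length, so the change between groups can be read and the sign cannot. No test was made of this average.

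**Figure D3:**
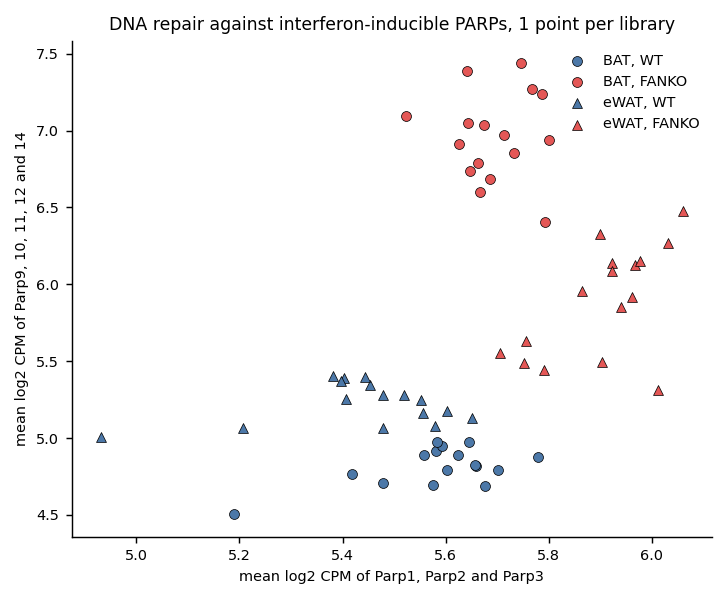
Mean log2 CPM of the 3 DNA-repair members against that of the 5 interferon-inducible members, 1 point per library, by depot and genotype (n = 16 each). On the interferon axis the WT BAT libraries end at 4.98 and the FANKO BAT libraries start at 6.405, while those of eWAT overlap. On the repair axis the eWAT libraries of WT end at 5.65 and those of FANKO start at 5.71, while those of BAT overlap.

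Depots also differed in WT mice. Of the 10 members 8 were called between WT BAT and WT eWAT, 3 higher and 5 lower in BAT, beside 73.7% of all genes (32.7% higher and 41.1% lower). Parp1 (log2 difference 1.15), Parp10 (0.75) and Parp2 (0.17, adjusted p = 0.00102) were higher in BAT, whereas Parp8 (-1.84), Parp14 (-1.17), Parp3 (-0.91), Parp11 (-0.89) and Parp9 (-0.74) were lower. Parp12 and Parp4 were not called. With library size alone as the scale, both were called lower in BAT, Parp12 at -0.74 (adjusted p = 1.27e-11) and Parp4 at -0.85 (adjusted p = 2.33e-13). Parp4 was also called lower without replicate 3 (-0.23, adjusted p = 0.00816). The call of Parp2 was lost without replicate 2, 3 or 4 (adjusted p = 0.0312, 0.0168 and 0.0161). With library size alone as the scale, Parp2 turned to -0.57 and Parp10 to -0.0009, and the other members called kept their direction, with Parp1 at 0.41, Parp9 at -1.48, Parp3 at -1.66, Parp11 at -1.63 and Parp14 at -1.93.

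Levels of different genes were compared per kilobase of exon (CPM per kb). In WT BAT, Parp1 was the highest at 22.6 ± 2.09 CPM per kb (SD, n = 16), then Parp3 at 14.8 and Parp10 at 12.1, whose SD ranges overlap. Parp12 (8.23), Parp9 (7.14), Parp2 (4.66), Parp4 (3.91), Parp14 (3.73), Parp11 (1.26) and Parp8 (0.402) followed. Among these, the SD ranges overlapped between Parp12 and Parp9, Parp2 and Parp4, and Parp4 and Parp14. In FANKO BAT the order began with Parp14 (36.3 ± 8.03), Parp3 (33.7) and Parp12 (31.2), then Parp9 (26.3) and Parp10 (26.2), and these 5 overlapped with their neighbours. Parp1 came next at 13.4, below Parp10 in all 16 samples, then Parp11 (7.89), Parp4 (5.26), Parp2 (4.36) and Parp8 (3.35), of which Parp4, Parp2 and Parp8 overlapped in order. In WT eWAT Parp3 led at 28.1 ± 6.55, above Parp9 (12.05) and Parp1 (10.2), whose ranges overlapped. Parp14 (8.41), Parp12 (8.24) and Parp10 (7.19) overlapped in order, as did Parp4 (4.22) and Parp2 (4.13), and Parp11 (2.32) and Parp8 (1.43) were last. In FANKO eWAT Parp3 led at 50.5, followed by Parp9 (17.2), Parp14 (15.5), Parp1 (15.3), Parp12 (13.8) and Parp10 (12.5), which overlapped in order. Parp2 (3.93), Parp11 (3.46) and Parp4 (3.05) overlapped as well, and Parp8 was last at 1.41.

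**Figure D4:**
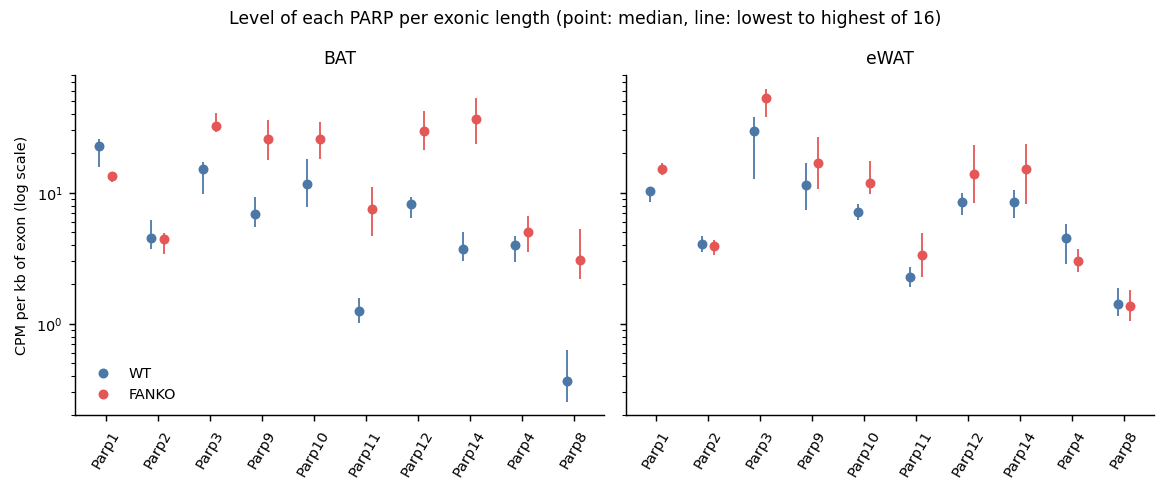
Level of each member per kilobase of exon (CPM per kb, log axis), with points for the median and lines from the lowest to the highest of 16 samples in each depot and genotype. In BAT, Parp14 moves from below to above Parp1 between WT and FANKO, whose means were 22.6 and 13.4 CPM per kb for Parp1 and 3.73 and 36.3 for Parp14.

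The genotype difference was then taken at each time point, with 4 samples per genotype. In BAT 34 of the 40 tests over 10 members and 4 time points were called, beside 45.8% of all such tests over all genes, and all 5 interferon-inducible members were called at each time point. By time point 9, 9, 8 and 8 members were called at ZT 6, 10, 18 and 22, and the percentage of all genes called was 48.2, 45.7, 44.0 and 45.3. In eWAT 24 of 40 were called, beside 21.4%, and 15 with library size alone as the scale. By time point in eWAT these were 8, 6, 3 and 7 members in the same order, while the percentage of all genes called was 27.0, 24.5, 13.6 and 20.6. Of the interferon-inducible members 5 were called at ZT 6 and at ZT 22, 3 at ZT 10 and 1, Parp10, at ZT 18. Parp1 was called at every time point in both depots, its log2 difference running from -0.86 to -0.65 in BAT and from 0.55 to 0.63 in eWAT.

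At ZT 18 in eWAT, the 4 FANKO samples had 76.9, 97.6, 86.2 and 111 CPM of Parp14 and the 4 WT samples 77.8, 67.2, 73.1 and 80.1 CPM, which overlap (log2 difference 0.32, adjusted p = 0.145). At ZT 22 the FANKO samples had 145, 221, 205 and 115 CPM and at ZT 6 they had 168, 138, 212 and 171 CPM, all above the WT samples of those times. Parp12 in FANKO eWAT had 33.5, 36.5, 36.9 and 36.4 CPM at ZT 18 and 70.5, 51.2, 92.5 and 61.3 CPM at ZT 6. For both genes the FANKO mean was lowest at ZT 18. In BAT the Parp14 values of FANKO were lower at ZT 6 (263, 220, 289 and 286 CPM) than at ZT 18 (489, 444, 372 and 382 CPM).

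**Figure D5:**
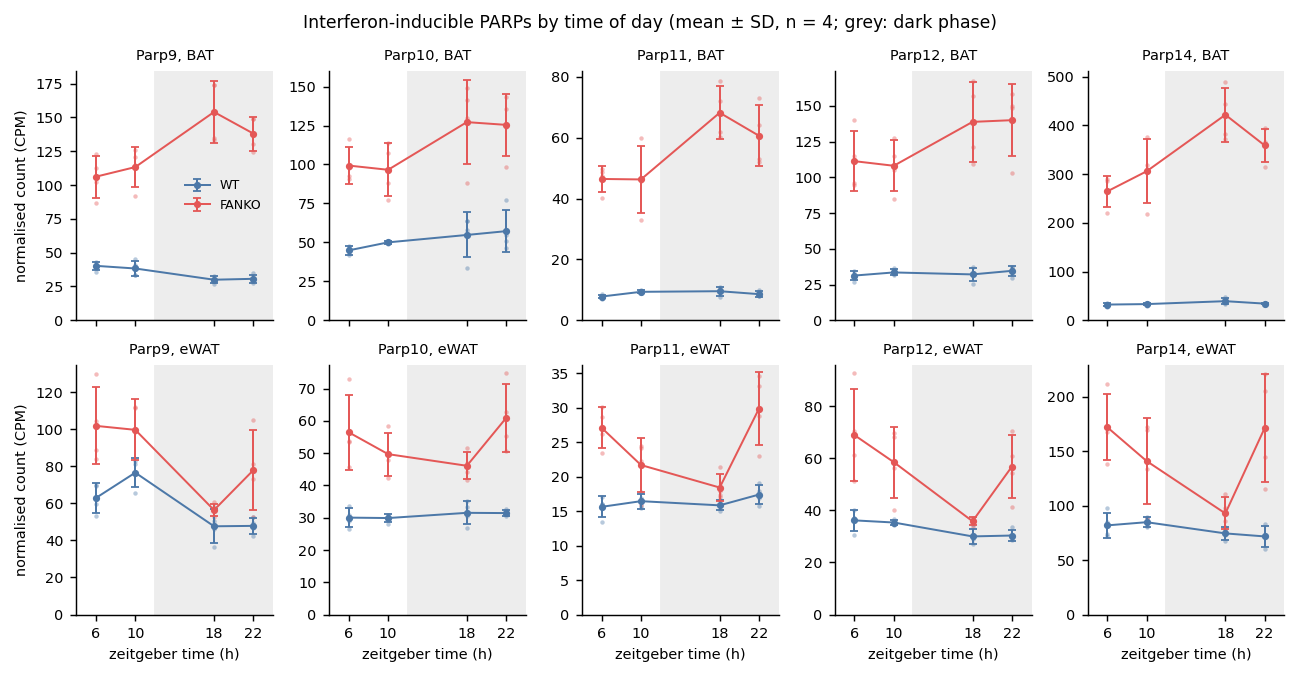
Interferon-inducible members over the day by genotype, BAT in the upper row and eWAT in the lower, in CPM against zeitgeber time in hours, with small points for samples, joined points for the mean of 4 samples and bars for the SD. Grey marks the dark phase. In FANKO eWAT the 4 values of Parp14 at ZT 18 are 76.9 to 111 CPM, and in FANKO BAT its mean is highest at ZT 18.

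Rhythm over the day was tested with a cosine of 24 h. In WT BAT no member was rhythmic, beside 13.9% of all genes (2 members had an unadjusted p below 0.05, and DESeq2 and limma-voom also called 0). Parp9 was called there with a separate fit per depot (adjusted p = 0.00419) and with library size alone as the scale (adjusted p = 0.0084). In FANKO BAT Parp11 (adjusted p = 0.00109) and Parp14 (adjusted p = 0.00908) were, beside 2.84%, both with the highest mean at ZT 18. Parp9 had an adjusted p of 0.0149 there, and was called with the replicate number as a block (0.00952), by DESeq2 (0.00873) and with a separate fit per depot (0.00386). Neither the call of Parp11 nor that of Parp14 held without the muscle-rich libraries (adjusted p = 0.0149 and 0.0894) or without replicate 1 or 2, and 0 to 4 members were called when single replicates were left out. In WT eWAT Parp9 (adjusted p = 0.000304) and Parp4 (adjusted p = 0.00524) were, beside 9.38%, with 0 to 3 members called when single replicates were left out. Both had their highest mean at ZT 10 and their lowest at ZT 18. In FANKO eWAT Parp9, Parp11, Parp12 and Parp14 were, beside 6.77%, with adjusted p between 4.93e-05 and 0.000264, and 2 to 4 members were called without single replicates. Parp9, Parp12 and Parp14 there were highest at ZT 6 and lowest at ZT 18, by 0.83 ± 0.15 (SE), 0.91 ± 0.18 and 0.89 ± 0.17 on the log2 scale, and Parp11 was highest at ZT 22 and lowest at ZT 18, by 0.68 ± 0.15.

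The difference of rhythm between genotypes was called for 1 member in BAT, Parp9 (adjusted p = 0.000979, beside 2.76% of all genes). Parp9 in WT BAT had 40.8, 35.9, 43.2 and 41.2 CPM at ZT 6 and 30.4, 32.9, 29.7 and 26.9 CPM at ZT 18. In FANKO BAT it had 102, 86.7, 123 and 113 CPM at ZT 6 and 174, 174, 133 and 135 CPM at ZT 18, the opposite order. That call was lost without the libraries with muscle markers above 100 CPM (adjusted p = 0.0713) and without replicate 1 (0.0371) or 2 (0.0218). In eWAT 0 members were called, beside 1.15% (6 had an unadjusted p below 0.05, DESeq2 and limma-voom called 0, and Parp14 had an adjusted p of 0.0407). Without replicate 4, Parp14 was called (adjusted p = 0.00866). Whether rhythms differed between depots was not tested.

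Other genes of ADP-ribosylation and of the interferon response were read from lists of known function, chosen with earlier results of these data known. Of 6 other genes of the ADP-ribosyltransferase family, listed by family and not by measured activity, 2 rose and 3 fell in BAT and 4 rose in eWAT. These and the counts of the next lists stand beside 33.1% of all genes higher and 33.9% lower in BAT, and 27.6% and 22.8% in eWAT, and the BAT counts of this list and of the readers and erasers are near those shares. Zc3hav1, which encodes an antiviral zinc-finger protein of the PARP family, rose from 44.2 ± 6.20 (SD, n = 16) to 149 ± 19.6 CPM in BAT (log2 difference 1.75) and by 0.47 in eWAT, whereas Parp16 of the endoplasmic reticulum fell by 0.66 in BAT and Tiparp, a target of the aryl hydrocarbon receptor, rose by 0.42 in eWAT. With library size alone as the scale, 4 of these rose and 0 fell in BAT, and 1 rose and 2 fell in eWAT. Of 10 readers, erasers and cofactors of ADP-ribose, 3 rose and 4 fell in BAT and 6 rose in eWAT, again depending on the scale (7 rose and 1 fell in BAT with library size alone). Dtx3l rose from 25.5 ± 2.62 to 140.4 ± 28.2 CPM in BAT (log2 difference 2.45) and by 0.64 in eWAT, and Macrod1, a mitochondrial ADP-ribose hydrolase, fell by 1.69 in BAT. Chd1l, a chromatin remodeller recruited by ADP-ribose chains, rose by 0.45 in eWAT. Dtx3l and Parp9 are encoded on opposite strands and share 458 exonic bases, and the strand setting of the counting is not given in the sources used here. Of 8 partners in single-strand break repair, 3 rose in BAT, near the share of all genes higher there, and 5 rose in eWAT. Fen1 was among them in BAT at a low level, going from 0.532 ± 0.302 to 1.16 ± 0.459 CPM (log2 difference 1.15). Aplf rose there by 0.48. Xrcc1, the scaffold of that repair, rose by 0.32 in eWAT. Library size alone gave 8 higher in BAT and 0 in eWAT. All 24 genes of the interferon list rose in both depots, with a median log2 difference of 5.29 in BAT and 2.28 in eWAT, beside 0.00 and -0.02 for all genes. Among them, Mx1 had a log2 difference of 8.02 and Ifit3 of 7.21 in BAT, and Ifit1 of 3.58 and Rsad2 of 3.37 in eWAT, all genes of antiviral defence.

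The genes most like each member were ranked by Pearson's r of log2 CPM over the 64 libraries, which share depot, genotype and depth, and are given as a description. For Parp14 they were Trim30a (r = 0.993) and Slfn8 (0.992), for Parp11 Trim30a (0.986) and Herc6 (0.983), for Parp12 Ddx58 (0.985) and Rnf213 (0.982), and for Parp9 Dtx3l (0.985) and Ifih1 (0.958). Most of these are known as interferon-induced genes. For Parp8 they were Ikzf1 (0.984) and Laptm5 (0.980), both known from blood cells. For Parp1 they were Pdk1 (0.958) and Mrpl48 (0.956), and for Parp3 Mogat2 (0.951) and Atp6v0a1 (0.941). For Parp10 they were Myl3 (0.946), a muscle myosin light chain, and Nt5c3 (0.942), with lower values of 0.39 and 0.57 within the 16 groups. For Parp4 they were Kmt2d (0.907) and Kmt2a (0.903), both histone methyltransferases. For Parp2 the highest values were lower, 0.593 for Zfp113 and 0.593 for Zbtb33. Among the 10 pairs of interferon-inducible members r ran from 0.61 to 0.99, with a median of 0.90 over all libraries and 0.68 within groups, and among the 3 pairs of DNA-repair members from -0.42 to 0.37 over all libraries and from 0.02 to 0.66 within groups. Parp1 with Parp3 had -0.41 over all libraries and 0.66 within groups.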

How the data were processed

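RNA from 64 samples was sequenced as stranded total RNA after depletion of ribosomal RNA. The authors deposited whole-number counts per gene from featureCounts 1.5.3, after alignment with STAR 2.5.3a to GRCm38.p5 (versions per the labels and the study's methods). The strand options of the counting are not given in the sources used here. Counts were analysed with edgeR 4.0.16 (R 4.3.3). filterByExpr (minimum count 10, minimum total 15) kept 20249 genes and removed 32387, and libraries were scaled by TMM. A quasi-likelihood model held a mean, a cosine and a sine (period 24 h) for each depot and genotype, and a model of 16 groups gave the differences at each time point. P values were adjusted by Benjamini-Hochberg over all genes tested, with a threshold of 0.01. The SE is the log2 difference over the square root of its F value, and log2 CPM used a prior count of 2. Symbols and positions came from GENCODE M21. Besides the members and Nampt, the text names from each related list the 2 genes per depot with the largest called change, and for each member the 2 genes with the highest correlation. A gene that this rule names is not reported here. Members and lists were chosen with earlier results of these data known. Nothing in the labels says that samples with the same number share an animal, so p values measure the spread between these samples. DESeq2 1.42.0, limma-voom (limma 3.58.1), other scalings and filters, covariates, and fits without each replicate were alternatives. Counts give relative levels.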

Additional observations from a re-analysis of the deposited data

Results flagged for a closer look

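The log2 CPM of 1 sample stood apart from the other 3 of its group (by Dixon's gap test at 95%) in 14 of 160 groups of 4, where chance flags about 1 in 20. In WT, Parp1 in eWAT was low in replicate 4 at ZT 18 (5.53) and high in replicate 3 at ZT 22 (5.86). Parp10 (5.07) in BAT was low in replicate 4 at ZT 18, and Parp3 (5.70) was low in replicate 4 at ZT 6. Parp4 in eWAT was high in replicate 1 at ZT 10 (5.24) and in replicate 4 at ZT 18 (4.97). Parp2 in eWAT was high in replicate 4 at ZT 6 (4.04) and in replicate 2 at ZT 10 (4.05), and Parp8 in BAT was high in replicate 2 at ZT 6 (2.26). In FANKO, Parp12 was low in BAT in replicate 3 at ZT 22 (6.69) and in eWAT in replicate 1 at ZT 18 (5.07). Parp2 in BAT was low in replicate 2 at ZT 6 (3.79) and replicate 1 at ZT 10 (3.76), and Parp8 in eWAT was high in replicate 3 at ZT 6 (4.02).

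The genotype effect differed between BAT and eWAT, by the interaction test, for 9 members, with log2 differences of -1.35 (Parp1), 0.34 (Parp3), 1.36 (Parp9), 0.32 (Parp10), 2.08 (Parp11), 1.20 (Parp12), 2.41 (Parp14), 0.88 (Parp4) and 3.08 (Parp8). The calls for Parp3 and Parp10 were lost without replicate 1 or 2 and without the muscle-rich libraries. The rhythm of Parp9 differed between WT and FANKO in BAT (adjusted p = 0.000979), a call lost in the same 3 fits. By the cosine test in each genotype alone, Parp9 was not called in BAT (adjusted p = 0.0287 in WT and 0.0149 in FANKO).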

How the results depend on the processing

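Counts of members called for a genotype difference in BAT (9) and eWAT (8) were within 1.5 times in every alternative run. So were those of the interaction and of the depots, which ran from 7 to 9 and from 7 to 8 outside library size alone. With library size alone, every member was called for the interaction, and every member except Parp10 between the WT depots. Rhythm counts moved more. Library size alone gave 1 rhythmic member in WT BAT in place of 0, 0 in FANKO BAT in place of 2 and 1 in WT eWAT in place of 2, and 15 in place of 24 calls at single time points in eWAT. For FANKO BAT, DESeq2's size factors, no filter, the muscle and epididymis covariates and time point as a factor each gave 1, and the fit without 8 muscle-rich libraries, an alternative chosen after seeing the data, gave 0, as it did for the rhythm difference in BAT (0 in place of 1). A fit per depot and a threshold of 0.05 each gave 1 in WT BAT, and the threshold of 0.05 gave 1 for the rhythm difference in eWAT. Leaving out each replicate in turn gave 0 to 4 in FANKO BAT, 0 to 3 in WT eWAT, 2 to 4 in FANKO eWAT, and 0 to 1 for the rhythm difference in each depot.

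Some log2 differences turned sign. Parp2 in BAT became 0.50 with library size alone. Its interaction became 0.080 (DESeq2's size factors), 0.81 (library size alone), 0.0095 (no filter), 0.13 (stricter filter) and 0.075 (DESeq2), and ran from -0.059 to 0.073 without single replicates. Its depot difference became -0.57 and that of Parp10 -0.00090 with library size alone. Parp12 between depots became -0.025 (DESeq2's size factors), -0.74 (library size alone), -0.014 (no filter), -0.076 (stricter filter), -0.0015 (with a block by shared number within genotype and time point) and -0.026 (DESeq2), and ran from -0.035 to 0.021 without single replicates. Parp8 in eWAT ran from -0.20 to 0.020 without single replicates. The call of Parp2 between WT depots was lost under 6 alternatives, and that of Parp3 in the interaction also under limma-voom (adjusted p = 0.0216) and with the covariates (adjusted p = 0.0102). The cause was not tested.

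With library size alone, 12785 genes were higher and 2274 lower in BAT (6709 and 6861 with TMM) and 2389 and 8592 in eWAT (5585 and 4610). With the replicate block the counts were 9 in BAT, 8 in eWAT, 9 for the interaction, 8 for the depots, and 3 for rhythm in FANKO BAT, where Parp9 was added. Deviations of same-numbered samples correlated with a median of 0.12 between depots (18 of 32 pairs over 0.1) and 0.14 between genotypes (17 of 32), against -0.03 and -0.04 for other numbers, and were above those in 25 and 30 of 32. These deviations were taken from group means, so a positive value for the same number by itself lowers the values for other numbers. The other numbers are therefore no independent baseline. WT and FANKO samples of the same number come from different animals, and their median (0.14) was close to that between depots (0.12). These values therefore cannot decide whether same-numbered samples share an animal. Not every pair was over 0.1 and no label gives a pairing, so the block was not used as the main fit.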
